A study of Mus musculus with 6 samples.

Results

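Invariant natural killer T (NKT) cells were picked out of the T cells of intracranial CT2A tumours by their antigen receptor. A cell barcode belonged to them when the T cell receptor (TCR) tables gave it an alpha chain that joins TRAV11 to TRAJ18, and when the gene expression matrix of the same day gave it at least 1000 gene UMIs (unique molecular identifiers, each marking 1 captured molecule) with at most 10% of mitochondrial genes. This held for 88 of 12639 barcodes with a receptor contig at that depth, 60 at day 13 and 28 at day 19. The threshold removed none of them: the shallowest had 2673 UMIs at day 13 and 3162 at day 19. The members were thus chosen by the assembled alpha chain, with no gene level beyond the depth filter, so gene expression, beta chain segments and antibody tags were open to comparison.

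The mice were C57BL/6J with genotype WT, aged 6 to 8 weeks, and carried CT2A, a mouse glioma line, in the brain. Tumours were taken at day 13 from 16 mice, pooled 4 to a replicate, or at day 19 from 4 mice. Sample labels describe a sort for CD3, and the series description narrows it to CD3 with CD4 or CD8. The labels list 1 gene expression, 1 antibody tag and 1 TCR library for each day, and no untreated or tumour-free group was analysed here. Day and library cannot be told apart. The receptor contigs of each day came in 4 tables, called contig sets here, and the labels do not say which mice a set holds. Sets were therefore used as a description of spread and not as replicates in the main comparison. An alternative fit took each set as a sample. Its p-values cannot be read as a spread between mice, since the mice of a set are not known.

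Invariant NKT cells are T cells of limited receptor diversity that recognise lipids presented by CD1d, an MHC-like molecule, in place of peptides on classical MHC. Their alpha chain is nearly fixed, and in mice it pairs with a small number of beta chain V segments. They depend on the transcription factor PLZF, encoded by Zbtb16, leave the thymus in a primed state, and are usually divided into type 1, type 2 and type 17 subsets by their transcription factors, such as T-bet and GATA3, and the cytokines they release. Most mouse invariant NKT cells carry CD4 or neither coreceptor, and CD8 is rare on them.

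The alpha chains are shown first, because they are what the cells share. Trav11 lies at chr14:53519303-53519859, its near-copy Trav11d at chr14:52824357-52824913 and Traj18 at chr14:54200777-54200842 (RefSeq annotation of GRCm38.p6, which is the mm10 assembly named in the processing notes). Of the 88 chains, 87 were assigned to TRAV11 and 1 to TRAV11D, and such near-copies are not surely told apart by assembled reads. The first and second complementarity-determining regions (CDR1 and CDR2) had 1 nucleotide sequence each in 88 of 88 contigs, as had the end of the chain after CDR3. The third region, CDR3, spans the V-J junction. It had 8 distinct nucleotide sequences, and the 6 most frequent of 45 bases are listed with the codon that differs, codon 4 of the CDR3, in capitals.
CDR1, 88 barcodes: gtgacccccgacaaccac
CDR2, 88 barcodes: ctggttgaccaaaaagacaaa
CDR3, 37 barcodes: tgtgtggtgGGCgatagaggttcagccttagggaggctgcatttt
CDR3, 18 barcodes: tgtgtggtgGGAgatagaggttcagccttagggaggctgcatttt
CDR3, 14 barcodes: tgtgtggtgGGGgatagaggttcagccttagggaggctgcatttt
CDR3, 12 barcodes: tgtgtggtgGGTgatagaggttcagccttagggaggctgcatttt
CDR3, 3 barcodes: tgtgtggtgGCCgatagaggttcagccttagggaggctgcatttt
CDR3, 2 barcodes: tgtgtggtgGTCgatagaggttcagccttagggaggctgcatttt

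The 4 commonest forms, in 81 of 88 barcodes, encode the same 15 amino acids, because all 4 codons specify glycine. The form ending its variable codon in C was found in all 8 contig sets. Of the other 7 barcodes, 3 had an alanine codon and 3 a valine codon at this place, and 1 had a CDR3 of 42 bases. No other contig barcode carried a CDR3 with the 15 amino acids of the common form. The contigs were shallow, with a median of 3 UMIs (range 1 to 9), and 12 of 88 rested on 1 UMI.

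Beta chains were then compared, which the rule had not read. A TRB contig was present in 87 of 88 barcodes. TRBV13-2 was used by 28 (32.2%), TRBV29 by 20 (23.0%), TRBV13-1 by 15 (17.2%), TRBV1 by 9 (10.3%) and TRBV13-3 by 3 (3.45%). Among other contig barcodes with a TRB chain the shares were 8.71%, 5.58%, 5.78%, 5.83% and 5.05%. Together these 5 segments, listed for invariant NKT cells in mice, accounted for 75 of 87 barcodes, or 86.2% (exact Clopper-Pearson 95% interval 77.1 to 92.7), against 31.0% (30.1 to 31.8) of 12107 others. These intervals, and all others given, cover counting error only. Over both days, the intervals of TRBV13-2, TRBV29 and TRBV13-1 lay above those of the other barcodes and the intervals of TRBV13-3 and TRBV1 overlapped them. Those of TRBV13-2 and TRBV29 lay above them on each day. At day 13 TRBV13-1 was used by 22.0% (interval 12.3 to 34.7) against 5.57% of others and TRBV1 by 5.08% against 5.71%. At day 19 TRBV13-1 was used by 7.14% (0.877 to 23.5) against 6.19% and TRBV1 by 21.4% (8.30 to 41.0) against 6.07% (5.36 to 6.84). Without set 3 of day 13, over both days, TRBV13-1 was at 12.3% (5.47 to 22.8) and TRBV1 at 13.8% (6.53 to 24.7), against 5.97% and 5.81%. The share of the 5 segments was 81.4% at day 13 (48 of 59) and 96.4% at day 19 (27 of 28), with overlapping intervals of 69.1 to 90.3 and 81.7 to 99.9. The remaining 12 barcodes used TRBV17 (3), TRBV3 (2), TRBV31 (2), TRBV10, TRBV14, TRBV16, TRBV20 or TRBV5 (1 each).

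**Figure D1:**
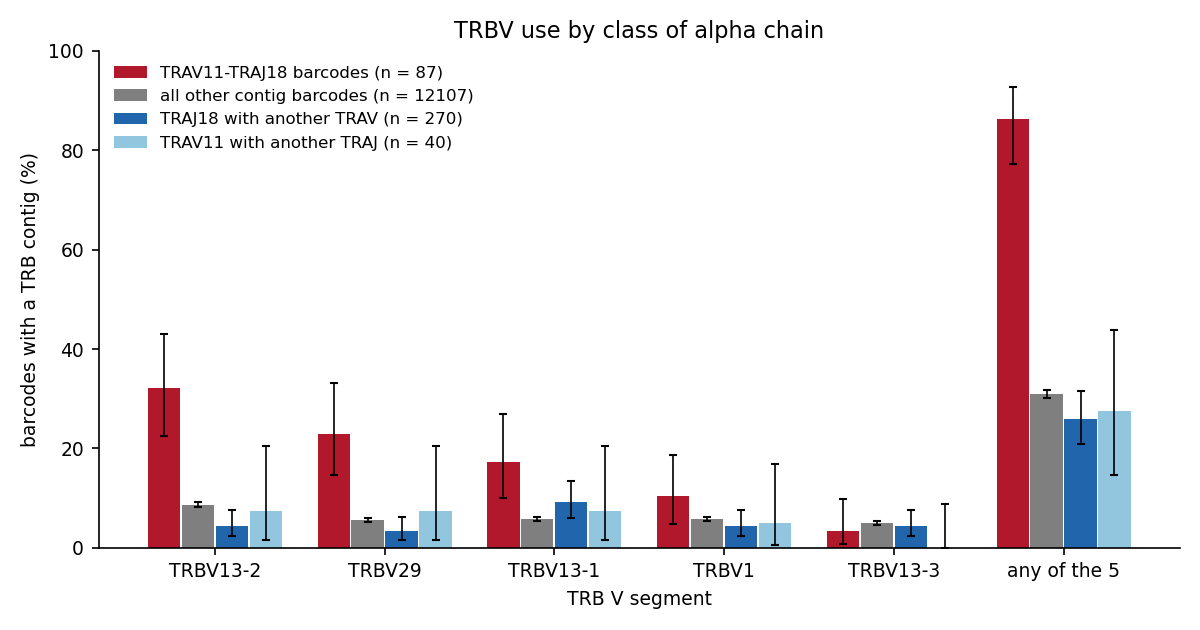
Share of barcodes with a TRB contig that used each V segment, for the TRAV11-TRAJ18 barcodes, all other contig barcodes and barcodes with only TRAJ18 or only TRAV11. Bars are percentages with exact Clopper-Pearson 95% intervals. The 5 segments together reach 86.2% in the TRAV11-TRAJ18 barcodes and 25.9% to 31.0% in the other classes.

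Sharing only the V or only the J segment of the alpha chain was not accompanied by this beta chain use. Barcodes with TRAJ18 and another TRAV used the 5 segments in 70 of 270 cases (25.9%, interval 20.8 to 31.6). Barcodes with TRAV11 and another TRAJ did so in 11 of 40 (27.5%, interval 14.6 to 43.9). Both shares lie beside that of all others and below that of the TRAV11-TRAJ18 barcodes. In each of the 8 contig sets the share was higher in the TRAV11-TRAJ18 barcodes, 77.3% to 100%, than in the others of the set, 27.4% to 34.1%.

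The beta chain contributes its CDR2 from the V segment alone, and the loops of the 5 segments are given here as the part of the beta chain that was shared between cells. Capitals mark bases that differ from TRBV13-2.
TRBV13-2: tcatatggtgctggcagc
TRBV13-1: tcatatggtgctggcaAc
TRBV13-3: tcatatgTCgctgAcagc
TRBV29: tcataCgAtgTtgATagT
TRBV1: CTGCGGAgtCctggGGAc
All have 18 bases. TRBV13-1 differed from TRBV13-2 at 1 base, TRBV13-3 at 3, TRBV29 at 6 and TRBV1 at 11.

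In contrast with the alpha chain alone, no receptor pair was repeated. The 87 barcodes with both chains had 87 distinct pairs of alpha and beta nucleotide CDR3, so no clone was seen more than once and no pair was found in more than 1 set or day. The barcode with the most TRB UMIs of each segment is shown. Capitals mark the stretch between the start that at least 80% of all chains of that V segment share and the end that at least 80% of all chains of that J segment share.
TRBV13-2 with TRBJ1-5: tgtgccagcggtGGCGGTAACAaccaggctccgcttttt
TRBV29 with TRBJ1-4: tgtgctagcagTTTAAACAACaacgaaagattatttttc
TRBV13-1 with TRBJ1-3: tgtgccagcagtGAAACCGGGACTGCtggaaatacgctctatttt
TRBV1 with TRBJ1-2: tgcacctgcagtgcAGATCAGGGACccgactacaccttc
TRBV13-3 with TRBJ1-2: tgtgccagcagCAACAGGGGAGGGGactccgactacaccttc

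Other T cells of the same tumours were expanded. Among 10528 other barcodes with both chains, 31.6% shared their pair with another barcode, and the largest pair held 99. A larger number of barcodes gives more chances of a repeat, so a class of nearer size was set beside it: of 270 barcodes with TRAJ18 and another TRAV, 37.4% were in repeated pairs, the largest with 36 barcodes. The 40 barcodes with TRAV11 and another TRAJ held 24 distinct pairs. In the TRAV11-TRAJ18 class 0 of 87 barcodes were in a repeated pair, which for independent draws allows a share of up to 3.45%. A repeat is seen only when several cells of a clone are sampled, and 87 is still well under 270. The limit therefore does not bound the share of expanded cells. CDR3 beta length had a median of 14 amino acids in both TRAV11-TRAJ18 and other barcodes, and TRBJ2 segments were used by 66.7% and 67.8%.

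TRAV11-TRAJ18 barcodes made up 0.719% of contig barcodes at day 13 (60 of 8347, interval 0.549 to 0.924) and 0.652% at day 19 (28 of 4292, interval 0.434 to 0.941). The intervals overlap almost entirely. Over contig sets the share ran from 0.428% to 0.838% at day 13 and from 0.451% to 1.03% at day 19. Depth was similar to that of other T cells: the median was 5704.5 gene UMIs at day 13 and 7081.5 at day 19, against 5353 and 7735 in the others. In all, 447220 and 244785 UMIs stood behind the 88 barcodes, and 58290611 and 43291173 behind the 12551 others. No barcode was a TRAV11-TRAJ18 barcode on both days, and 58 contig barcodes occurred on both days.

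Gene expression was compared between the UMI sums of TRAV11-TRAJ18 barcodes and of all other contig barcodes, with the day as a block. Levels are in CPM, UMIs scaled to a sum of 1000000. Of 12662 genes tested with edgeR's quasi-likelihood test at a Benjamini-Hochberg adjusted p under 0.05, 301 differed (2.38%): 149 were higher (1.18%) and 152 lower (1.2%) in the TRAV11-TRAJ18 barcodes. Only 2 gene expression libraries stand behind each p-value. With the day as a block, the p-value weighs a difference between classes against how far that difference varied between the 2 days. It does not measure the spread between mice. A small p here rests largely on the spread pooled over genes. DESeq2 called 78 genes, 77 of them among the 301. Named genes that lost their call under DESeq2, with contig sets as samples, or against others with only CD4 or only CD8 RNA are given with their groups. Fewer cells with a transcript and less of it per cell cannot be told apart in such sums.

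Zbtb16, the gene of PLZF, stood at 119 CPM at day 13 and 61.3 CPM at day 19, against 1.66 and 0.577 CPM in the other T cells. The 2 levels of the TRAV11-TRAJ18 class lie far above both levels of the others, with a log2 difference of 6.31 ± 0.54 (SE; edgeR adjusted p = 4.40e-28). A UMI of Zbtb16 was found in 30 of 60 barcodes at day 13 and in 10 of 28 at day 19. The class lay above the others in 7 of 8 sets, at 38.5 to 214 CPM. In set 1 of day 19, which held 3 barcodes, no Zbtb16 UMI was found.

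Klrb1c encodes NK1.1, a receptor shared with NK cells that marks mature type 1 NKT cells in this strain. It measured 80.5 CPM at day 13 and 184 CPM at day 19, against 10.0 and 19.98 CPM in others. Its log2 difference was 3.06 ± 0.30 (edgeR adjusted p = 2.93e-22), and the class lay above the others in all 8 sets. Cd3e, a chain of the TCR complex common to all T cells, was level: 928 and 858 CPM against 979 and 974.6 CPM, a log2 difference of -0.17 ± 0.11 (edgeR adjusted p = 0.82). With the T cell gene at the level of other T cells and both NKT markers raised, the sums of the class bore out the name given by the receptor. Of the single barcodes, 28 of 88 had no UMI of Zbtb16 or Klrb1c. The NK1.1 antibody tag was not called (log2 difference 0.12 ± 0.08, edgeR adjusted p = 0.77).

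**Figure D2:**
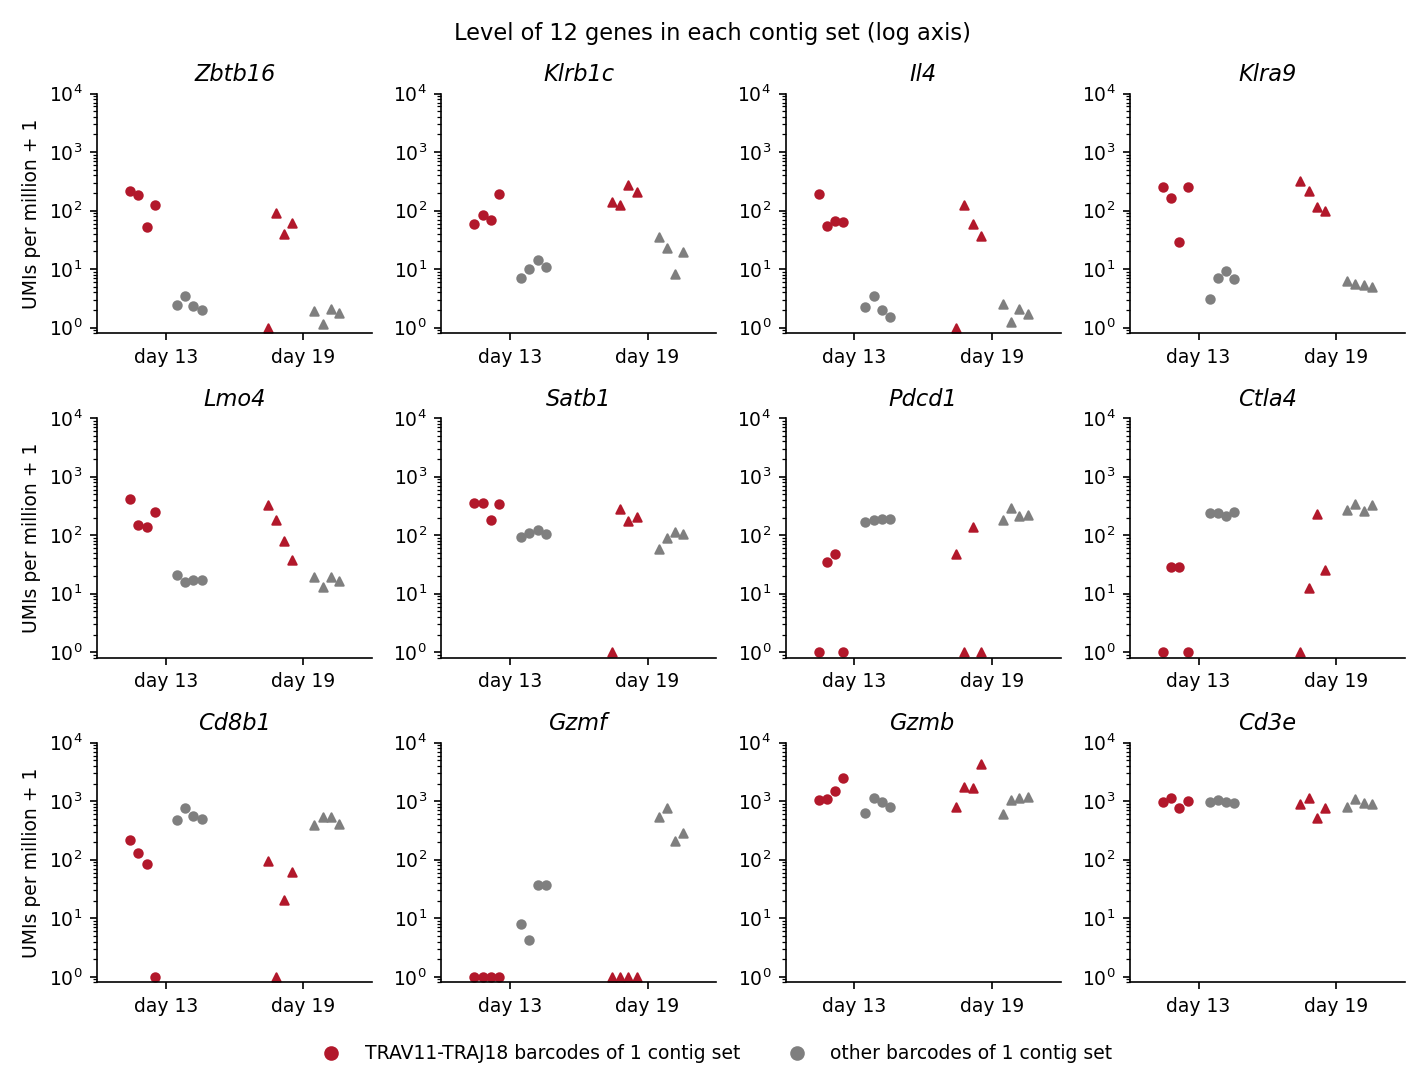
CPM plus 1 (log axis) of 12 genes in each of the 4 contig sets of a day, for the TRAV11-TRAJ18 barcodes (red) and other barcodes (grey) of the set. Zbtb16, Klrb1c, Il4, Klra9 and Lmo4 lie above the others except where a set of 3 barcodes had no UMI. Cd3e lies at the same level, and Gzmf has no UMI in any TRAV11-TRAJ18 set.

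Shares of barcodes with a UMI were compared after each barcode was thinned to 2000 UMIs, which left out 197 of the others and none of the 88. Zbtb16 was then detected in 15.9% of TRAV11-TRAJ18 barcodes (14 of 88, interval 8.98 to 25.2) and in 0.227% of others (interval 0.151 to 0.327). Unthinned, the shares were 45.5% and 0.629%. At the same depth it was seen in 1 of 277 barcodes with TRAJ18 and another TRAV, and in 0 of 39 with TRAV11 and another TRAJ, which allows a share of up to 7.69%. Zbtb16 was thus rare in barcodes with TRAJ18 and another TRAV. For TRAV11 with another TRAJ, 39 barcodes are too few to show its absence. Klrb1c was detected in 20.5% of the TRAV11-TRAJ18 barcodes and 2.31% of others, and Il4 in 12.5% and 0.219%. Among 10 barcodes with TRAV1 and TRAJ33, the alpha chain of mucosal-associated invariant T cells, which also use PLZF, 2 had a Zbtb16 UMI.

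**Figure D3:**
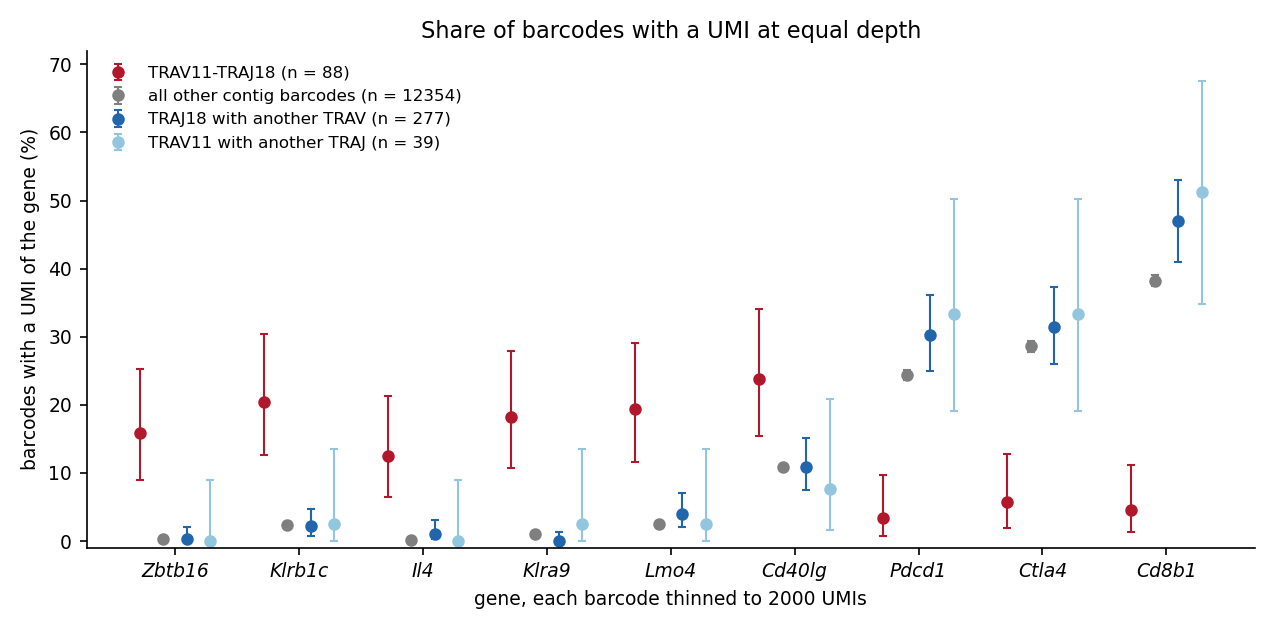
Percentage of barcodes with at least 1 UMI of 9 genes after thinning to 2000 UMIs, with exact Clopper-Pearson 95% intervals, for 4 classes of alpha chain. Barcodes with only TRAJ18 or only TRAV11 lie with the other T cells for Zbtb16, Klrb1c, Il4, Pdcd1, Ctla4 and Cd8b1, and the TRAV11-TRAJ18 barcodes lie apart from them. The barcodes with only TRAV11 are few, so finding no Zbtb16 UMI among them does not show its absence.

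Of 14 genes listed for NKT identity, all tested, 4 were higher and 0 lower, and the median log2 difference of the list was 0.08, against -0.09 over all genes tested. Id2, a regulator that restrains E proteins, differed by 0.57 ± 0.17 and Fcer1g, a signalling adaptor shared with NK and myeloid cells, by 0.39 ± 0.12. Both were fragile. Id2 lost its call when any of 7 sets was left out (edgeR adjusted p from 0.074 to 0.47; the exception was set 3 of day 19). Fcer1g lost it without set 3 of day 13, set 3 of day 19 or set 4 of day 19, and its difference turned to -0.40 in the first of these runs. In barcodes with under 2 UMIs of 10 myeloid genes it was 0.33 (adjusted p = 0.58), against others with CD4 RNA only 0.12 (adjusted p = 0.91) and with contig sets as samples -0.26 (adjusted p = 0.69). Id2 was not called against others with CD8 RNA only (0.40, adjusted p = 0.23) or with contig sets as samples (0.39, adjusted p = 0.37), and DESeq2 called neither gene. The other 10 did not pass, among them the receptors of the SLAM family that select NKT cells in the thymus (Slamf1 18 UMIs in all, log2 difference -0.71 ± 0.38; Slamf6 -0.39 ± 0.31), and Egr1 at -0.13 ± 0.15.

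Among 16 genes listed for the type 1 subset, 6 were higher and 2 lower, with a median log2 difference of 0.48. Tbx21, which encodes T-bet, measured 125 and 106 CPM (day 13, day 19) against 60.9 and 58.3 CPM, a difference of 0.92 ± 0.24. Il2rb, the shared beta chain of the IL-2 and IL-15 receptors, measured 805 and 956 against 580 and 635 CPM (0.49 ± 0.12). Both lay above the others in 8 of 8 sets, but Tbx21 lost its call without set 2 of day 13 or set 2 of day 19, and Il2rb without set 2 of day 13 or sets 2, 3 or 4 of day 19. Klrk1, which encodes the activating receptor NKG2D, measured 300 and 212 against 115 and 115 CPM (1.12 ± 0.18) and kept its call without any single set. Il18rap, a chain of the IL-18 receptor, differed by 1.38 ± 0.33 and lost its call without set 2 of day 13. The chemokine gene Xcl1 differed by 0.70 ± 0.17, and lost it without set 3 of day 13 or sets 2 or 3 of day 19. Against others with CD8 RNA only Tbx21 (0.60, adjusted p = 0.12), Il2rb (0.24, adjusted p = 0.45) and Xcl1 (0.099, adjusted p = 0.90) were not called. With contig sets as samples the same 3 genes stood at 0.83 (adjusted p = 0.052), 0.35 (adjusted p = 0.30) and 0.55 (adjusted p = 0.17). DESeq2 did not call Tbx21, Il2rb, Xcl1 or Il18rap.

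The Ly49 receptors, which bind MHC class I on target cells, were the clearest of the NK-type genes. Klra1 measured 80.5 and 163 CPM against 12.7 and 12.2 CPM (3.15 ± 0.31), and Klra9 114 and 163 CPM against 6.11 and 4.50 CPM (4.63 ± 0.33). Both were above the others in all 8 sets and kept their call without any single set. Ly49 genes are close copies of one another, so the split of reads between Klra1, Klra9 and other copies is uncertain. Ifng, the hallmark cytokine of the type 1 subset, was not called. It lay above the others at day 13 (217 against 182 CPM) and below them at day 19 (123 against 173 CPM). Its log2 difference over both days was -0.10 ± 0.19. Ccl5, a chemokine of effector T cells, was lower, at 2770 and 1450 CPM against 5073 and 2497 CPM (-0.87 ± 0.08). Nkg7, a granule protein gene, was lower by -0.41 ± 0.11, a call lost without sets 1 or 2 of day 13 or sets 2, 3 or 4 of day 19 and under DESeq2.

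Type 2 genes were represented by Il4 and Il17rb, 2 of 10 listed, with 0 lower and a list median of 0.39. Il4, the cytokine gene that NKT cells hold ready for release, measured 76.0 and 69.4 CPM against 1.44 and 0.670 CPM. Its 51 UMIs came from 23 barcodes, and its log2 difference of 6.07 ± 0.61 (edgeR adjusted p = 1.34e-20) came after those of Zbtb16 and Chdh among the genes named by size. Il17rb, the receptor of IL-25, measured 40.2 and 8.17 CPM against 0.395 and 0.346 CPM, from 20 UMIs in 14 barcodes (6.04 ± 1.14). Both genes kept their call without any single set. The type 2 factor Gata3 did not pass, at 53.7 and 85.8 CPM against 50.01 and 39.6 CPM (0.51 ± 0.29).

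Type 17 genes were sparse. Of 14 listed genes, 12 were tested and 2 called higher, the paralogs Tmem176a (1.31 ± 0.28) and Tmem176b (1.42 ± 0.22), which dendritic and other myeloid cells also express. They lay above the others in 3 and 4 of 8 sets, and both lost their call without set 3 of day 13 (adjusted p 0.96 and 0.19). With contig sets as samples they were not called (0.91, adjusted p = 0.21, and 0.96, adjusted p = 0.13), and DESeq2 did not call Tmem176a. In barcodes with under 2 myeloid UMIs they were higher by 2.21 and 2.44. Il23r had 2 UMIs in 1 of 88 barcodes, and Il17a, Il17f and Blk none. The list median was 1.37, or 1.42 with Blk left out because both classes lie under the floor of 3 UMIs. Of 6 genes listed for regulatory and follicular NKT subsets none was called (0 higher and 0 lower), and Il10 and Il21 had no UMI. No type 17 or regulatory programme was detectable at this depth.

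Genes of tissue residency were higher in 4 of 10 cases and lower in none, with a list median of 0.53. Zfp683, which encodes the residency factor Hobit, measured 49.2 and 57.2 against 6.54 and 13.7 CPM (2.47 ± 0.40) and kept its call without any single set. P2rx7, a receptor for extracellular ATP found on resident T cells, measured 71.6 and 28.6 against 16.7 and 11.97 CPM (1.79 ± 0.38), also kept without any single set. P2rx7 was not called against others with CD4 RNA only (1.01, adjusted p = 0.088) or by DESeq2 (adjusted p = 0.13). Itgae, the integrin chain CD103, differed by 1.22 ± 0.35 and Rgs2, a brake on G protein signalling, by 0.69 ± 0.19. Itgae lost its call without sets 3 or 4 of day 13 or sets 2 or 3 of day 19, and Rgs2 without sets 2 or 3 of day 13 or sets 2 or 4 of day 19. With contig sets as samples neither was called (1.12, adjusted p = 0.090, and 0.46, adjusted p = 0.35), and DESeq2 called neither. Rgs2 was at 0.44 against others with CD4 RNA only (adjusted p = 0.34). Cxcr6 (0.55 ± 0.19), Cd69 (0.11 ± 0.14) and Rgs1 (-0.25 ± 0.13) did not pass.

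Genes of circulation and the naive state split evenly, 2 higher and 2 lower of 10, with a median of -0.15. Satb1, a chromatin organiser of thymocytes and naive T cells, measured 266 and 208 against 108 and 91.9 CPM (1.21 ± 0.19). Il7r, the receptor chain for the survival cytokine IL-7, measured 483 and 421 against 321 and 195 CPM (0.79 ± 0.15). Both calls held without any single set, but Il7r was not called against others with CD4 RNA only (0.53, adjusted p = 0.059). Ccr7, which guides cells to lymph nodes, was called lower (-1.29 ± 0.18), but 94 of its 128 UMIs at day 13 came from 3 barcodes and day 19 had 3 UMIs in all, and DESeq2 did not call it.

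Several genes of exhaustion and immune checkpoints, which chronically stimulated T cells raise, were lower than in other T cells of the tumour. Of 10 listed, 6 were lower and 0 higher, with a list median of -1.83 against -0.09 for all genes. Pdcd1, the gene of PD-1, measured 33.5 and 32.7 CPM against 184 and 243 CPM (-2.68 ± 0.26). Ctla4 measured 22.4 and 61.3 against 231 and 311 CPM (-2.87 ± 0.24), Tigit 22.4 and 57.2 against 179 and 308 CPM (-2.74 ± 0.25), and Lag3 20.1 and 69.4 against 134 and 258 CPM (-2.29 ± 0.26). All 4 encode inhibitory receptors, and all 4 were below the others in 8 of 8 sets and kept their call without any single set. Nr4a2, a factor induced by receptor signalling, was lower by -1.41 ± 0.25. Tox, a factor of the exhausted state, was lower by -1.26 ± 0.36, a call lost without sets 3 or 4 of day 13 or sets 2, 3 or 4 of day 19 and under DESeq2. Havcr2, Entpd1, Cd244a and Cd38 did not pass.

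After thinning, a Pdcd1 UMI was found in 3.41% of TRAV11-TRAJ18 barcodes (interval 0.709 to 9.64), 24.3% of others and 30.3% of barcodes with TRAJ18 and another TRAV. Ctla4 was found in 5.68%, 28.6% and 31.4%. Barcodes with TRAJ18 and another TRAV thus did not have the low shares. What the low shares depend on was not tested. Pdcd1, Ctla4, Tigit and Lag3 kept their calls against CD4 and against CD8 T cells: Pdcd1 was lower by -2.61 ± 0.28 against others with CD4 RNA only, and by -2.88 ± 0.26 against others with CD8 RNA only. Nr4a2 and Tox kept theirs against the CD8 cells only: against others with CD4 RNA only they stood at -0.51 ± 0.29 (edgeR adjusted p = 0.55) and -1.05 ± 0.38 (adjusted p = 0.12).

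**Figure D4:**
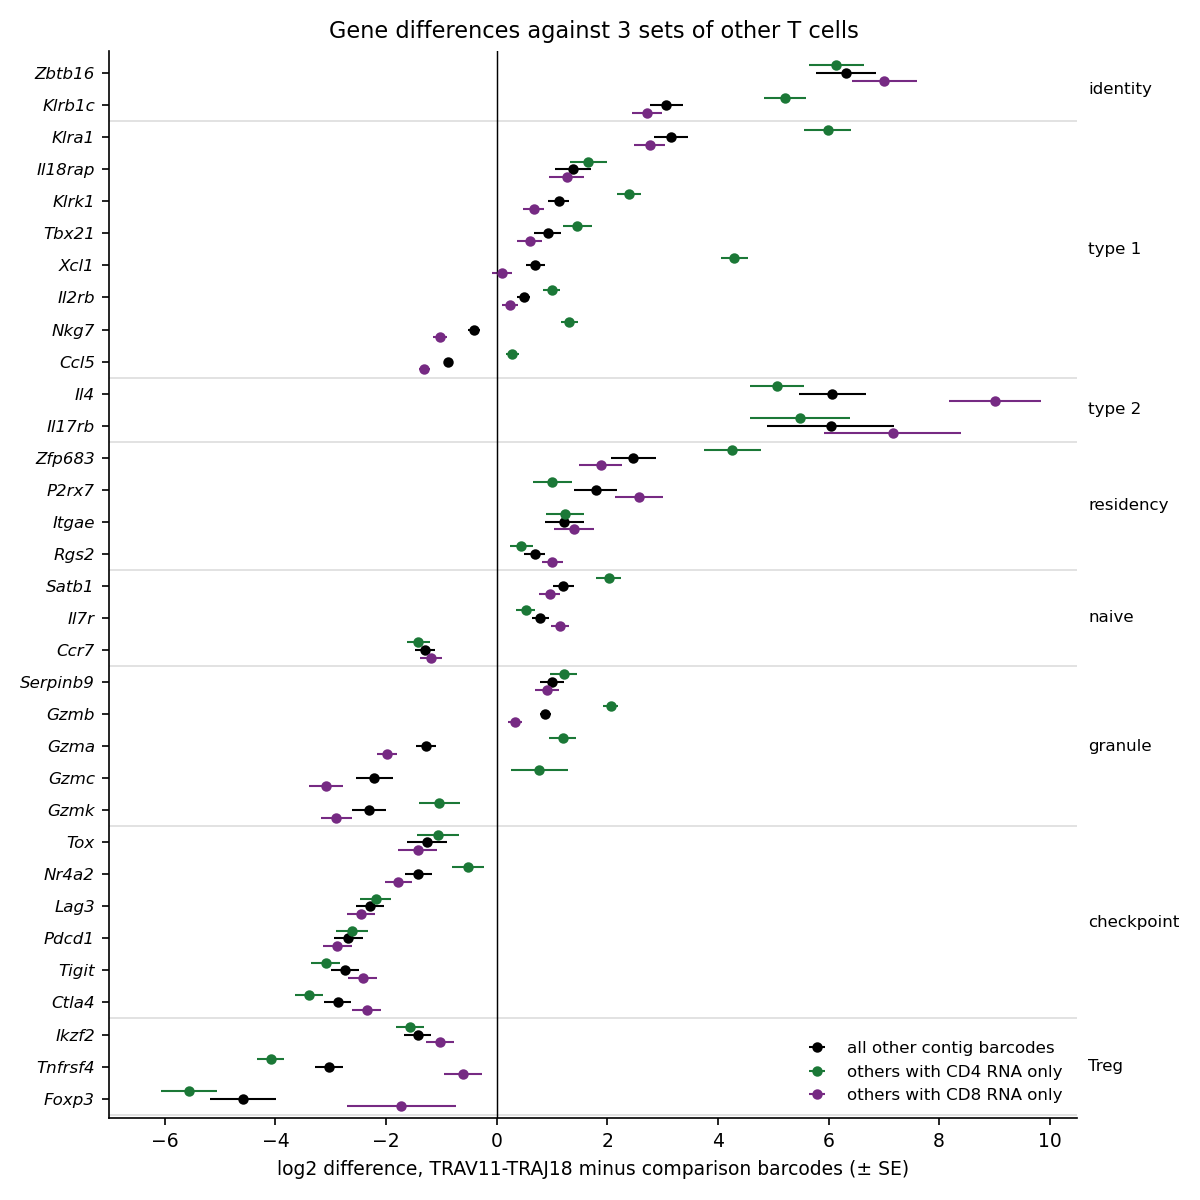
Log2 difference (± SE) of 33 genes between TRAV11-TRAJ18 barcodes and all other contig barcodes (black), others with CD4 RNA only (green) and others with CD8 RNA only (purple). Il4 is 9.02 against the CD8 comparison. The checkpoint genes lie to the left of 0 in all 3 comparisons, and Ccl5, Nkg7, Gzma and Gzmc change sign between the CD4 and CD8 comparisons.

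Granule genes diverged. Of 12 listed, 2 were higher and 4 lower, with a median of -0.11. Gzmb, the gene of granzyme B, measured 1377 and 2525 CPM against 927 and 1042 CPM (0.88 ± 0.10), and Serpinb9, its intracellular inhibitor, 159 and 139 against 80.4 and 63.2 CPM (1.00 ± 0.22). Gzmb lay above the others in 7 of 8 sets. Serpinb9 lost its call without set 2 of day 19 and under DESeq2 (adjusted p = 0.080). The other granzymes went the opposite way: Gzmk measured 40.2 and 12.3 against 178 and 78.9 CPM (-2.31 ± 0.30), Gzma 221 and 61.3 against 358 and 301 CPM (-1.28 ± 0.18), and Gzmc 11.2 and 40.9 against 21.9 and 253 CPM (-2.21 ± 0.34). Without the 10% of barcodes with the most UMIs Gzmc stood at -0.97 and was not called (adjusted p = 0.36). Gzmf had no UMI in the 88 barcodes and 21.1 and 515 CPM in others, at least 45.2-fold lower: the others' levels give 136 UMIs at the depth of the 88 barcodes, against a floor of 3 UMIs over both days. Granzymes c and f are neighbouring, similar genes, so part of their counts may be exchanged. Prf1, the gene of perforin, did not pass (-0.82 ± 0.35).

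These granule differences depended on the T cells compared. Against others with CD4 RNA only, Gzmb was higher by 2.06 ± 0.14, Gzma by 1.19 ± 0.25 and Nkg7 by 1.31 ± 0.15, and Ccl5 was at 0.28 ± 0.12 without a call. In that comparison Gzmk (-1.04, adjusted p = 0.11) and Gzmc (0.77, adjusted p = 0.69) were not called either. Against others with CD8 RNA only, Gzma was lower by -1.99 ± 0.19 and Gzmb, at 0.33 ± 0.12, was not called.

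Of 12 genes of the TCR complex and its coreceptors, 5 were lower and 0 higher (median -0.18). Cd8b1 measured 107 and 32.7 against 604 and 495 CPM (-2.97 ± 0.19), Cd8a 78.3 and 49.0 against 415 and 405 CPM (-2.68 ± 0.20), and Cd4 33.5 and 40.9 against 77.3 and 78.0 CPM (-1.14 ± 0.31). The Cd4 call was lost without set 3 of day 13 or set 2 of day 19. Cd5, an inhibitor of receptor signalling, differed by -0.89 ± 0.21 (lost without set 3 of day 13), and Cd247, the zeta chain, by -0.61 ± 0.19 (lost in 7 of 8 such runs, all but the one without set 1 of day 19). Cd5 (-0.25, adjusted p = 0.74) and Cd247 (-0.48, adjusted p = 0.16) were not called against others with CD8 RNA only, and DESeq2 did not call Cd4, Cd5 or Cd247. Cd3d, Cd3g, Lck and Zap70 did not pass, with differences from -0.18 to -0.06.

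Counted by barcode, 62 of 88 (70.5%, interval 59.8 to 79.7) had neither Cd4 nor Cd8 RNA, although the series description gives a sort for CD4 or CD8. Among other contig barcodes 19.1% (18.4 to 19.8) had neither, at a median of 4486 UMIs against 5582.5 in the TRAV11-TRAJ18 ones. CD4 RNA alone was found in 17, CD8 RNA alone in 9 and both in 0. The 9 with CD8 RNA were deep, with 9873 to 25212 UMIs and a median of 16034, and 5 of them had 2 alpha or 2 beta chains, against 10 of 79 without CD8 RNA at a median of 5762 UMIs. No doublet caller was run, and the part of droplets with 2 cells in these 9 was not tested. Over all 88 barcodes, 11.4% had 2 alpha chains and 9.09% had 2 beta chains, against 11.7% and 6.58% of others with 2 or more.

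Markers of other cell types were read in the same sums. Genes of regulatory T cells were lower in 4 of 6 cases and higher in none: Foxp3, their defining factor, had 2 UMIs in 1 barcode (4.47 and 0 CPM against 60.5 and 79.1 CPM, -4.58 ± 0.59), and Tnfrsf4 (OX40) measured 22.4 and 49.0 against 184 and 377 CPM (-3.03 ± 0.25). Ikzf2 (Helios) differed by -1.43 ± 0.24 and Il2ra (CD25) by -1.01 ± 0.30, the latter lost without sets 1, 3 or 4 of day 13 or sets 2 or 4 of day 19, under DESeq2 and with contig sets as samples (adjusted p = 0.072). Against others with CD8 RNA only, Tnfrsf4 (-0.61, adjusted p = 0.42), Foxp3 (-1.72, adjusted p = 0.45) and Il2ra (0.035, adjusted p = 0.99) were not called. Of 6 NK cell genes 5 were tested, 2 were lower (Eomes -2.79 ± 0.69 and Gzma) and 0 higher. Both signs turned against others with CD4 RNA only, to 0.28 for Eomes (adjusted p = 0.99) and 1.19 for Gzma (adjusted p = 1.49e-04), and DESeq2 did not call Eomes (adjusted p = 0.55). The median of this list was -1.28, and 0.35 with genes lacking a UMI at their bound or left out, so its sign differs. Ncr1, the defining NK receptor gene, had 6 UMIs in 2 barcodes, and Klra8 and Klra4 had none. Cycling genes were called in 0 of 6 cases in either direction. Ccl3 (-2.20 ± 0.29) and Ccl4 (-1.36 ± 0.16), chemokines of activated T cells, were lower, 2 of 7 listed cytokine genes, with 0 higher. DESeq2 did not call Ccl4.

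Myeloid RNA was present in both classes: the 10 listed genes summed to 2357 and 6238 CPM in TRAV11-TRAJ18 barcodes (97.1 to 12709 over sets) and to 2827 and 4478 CPM in others (1859 to 8861). At least 2 such UMIs were found in 21.6% of the 88 and 28.9% of others, and 1 gene, Apoe, was called (-0.43 ± 0.12, lost in 5 of 8 runs that left out a set: sets 1, 2 and 4 of day 13 and sets 2 and 4 of day 19). Dendritic cell genes summed to 6981 and 1605 CPM against 4457 and 5335 CPM, and 3 of 8, the antigen presentation genes Cd74, H2-Aa and H2-Ab1, were called lower. In barcodes with under 2 myeloid UMIs all 3 were higher (0.64 to 1.69), and so they were against others with CD8 RNA only (0.49 to 0.55). DESeq2 called none of the 3, nor Apoe, which stood at 0.43 against others with CD8 RNA only (adjusted p = 0.059). At day 13 they were above the others, and 3 barcodes held 1338 of the 1890 Cd74 UMIs. The call of all 3 was lost without set 2 of day 19, that of H2-Aa also without sets 1 or 4 of day 19, and that of H2-Ab1 also without sets 1, 2 or 4 of day 13 or sets 1 or 3 of day 19. B cell genes were called in 0 of 4 tested cases, at a list median of 2.12 against -0.09 over all genes. The 6 listed genes summed to 244 and 81.7 CPM, with sets from 0 to 1048 CPM. In others they summed to 153 and 130 CPM, with sets from 121 to 184 CPM. At least 2 such UMIs were found in 23.9% of the 88 barcodes and 24.1% of others. Of glial and tumour-bed genes, 3 of 8 were tested and Ttr, with no UMI, was called lower (at least 4.50-fold, lost without set 3 of day 19). Without the barcodes holding 2 or more myeloid UMIs, Zbtb16 (6.43), Klrb1c, Il4 (5.85), Pdcd1 and Ctla4 kept their calls. Of the named genes with a call, 17 lost it there: Fcer1g, Xcl1 (adjusted p = 0.066), Itgae (adjusted p = 0.058), Tox (adjusted p = 0.057), Cd4 (adjusted p = 0.19), Il2ra (adjusted p = 0.12), Apoe and 10 of the highest and lowest genes named next (Cap2, Slc27a6, Dusp14, Ccl22, Gprin3, Igfbp7, Hist1h4h, Rln3, Usp11 and Slc43a3).

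The 12 highest genes of all, leaving out receptor segments, ribosomal, mitochondrial and unnamed genes, were Zbtb16, Chdh, Il4, Il17rb, Cap2, Slc27a6, Klra9, Cd209d, Styk1, Lmo4, Rab4a and Klra1. Lmo4, a LIM-domain transcription cofactor, measured 181 and 123 CPM against 16.2 and 14.7 CPM (3.27 ± 0.27), in 35 barcodes and above the others in 8 of 8 sets. Rab4a, a GTPase of early endosomes, measured 38.0 and 28.6 against 3.59 and 3.51 CPM (3.21 ± 0.59). Chdh, which encodes choline dehydrogenase, had 14 UMIs in 9 barcodes (6.17 ± 1.45), Styk1 16 UMIs in 11 (3.67 ± 0.76), Cap2 11 in 9 (5.91 ± 1.65) and Slc27a6, a fatty acid transporter gene, 11 in 10 (5.71 ± 1.58). Cap2 lost its call without set 3 of day 13 or set 3 of day 19, and Slc27a6 without sets 2, 3 or 4 of day 13. Cd209d rested on 1 barcode of set 4 of day 19 with all 19 UMIs, and had none elsewhere, and DESeq2 did not call it.

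The 12 lowest genes had no UMI in the 88 barcodes, so only bounds can be given, against a floor of 3 UMIs over both days. Beside Gzmf and Ttr these were Nrgn (at least 4.79-fold lower), Zbtb32 (4.17-fold), Dusp14 (3.53-fold), Ccl22 (3.52-fold), Gprin3 (3.26-fold), Igfbp7 (2.91-fold), Hist1h4h (2.60-fold), Rln3 (2.51-fold), Usp11 (2.45-fold) and Slc43a3 (2.43-fold). Nrgn, Zbtb32, Dusp14 and Gzmf were called without any single set. Ccl22 and Gprin3 were lost without set 3 of day 13, and Igfbp7 without set 3 of day 13 or sets 2 or 4 of day 19. Hist1h4h was lost without sets 2 or 3 of day 13 or sets 2, 3 or 4 of day 19, Rln3 without sets 2, 3 or 4 of either day, and Slc43a3 and Usp11 without any of the 8. DESeq2 called none of the 12. Hist1h4h, Usp11 and Slc43a3 were not called against others with CD4 RNA only, nor Rln3 against others with CD8 RNA only.

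Further calls ended under the remaining settings. Without the 10% of barcodes with the most UMIs, Fcer1g, Tbx21, Tmem176a, Itgae, Tox, Cd4, Il2ra, Apoe and 6 of the lowest genes (Ccl22, Igfbp7, Hist1h4h, Rln3, Usp11 and Slc43a3) lost theirs beside Gzmc, and Cd209d turned. In barcodes with exactly 1 TRA and 1 TRB contig, Id2, Tbx21, Il2rb, Nkg7, Il18rap, Rgs2, Tox, Cd247, Cd4, Il2ra, Apoe, H2-Aa, H2-Ab1, Cd74, Cap2 and 7 of the lowest genes (the same 6 and Gprin3) lost theirs. With no filter on low counts, Id2, Fcer1g, Il2rb, Itgae, Rgs2, Rln3, Usp11 and Slc43a3 did so. With at least 3000 UMIs it was Fcer1g and Cd247, and with RLE normalization Cd247 and Usp11.

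Genes of the gamma TCR chain were outside the test, since receptor segments were left out of it. Tcrg-C1 measured 62.6 and 106 CPM in TRAV11-TRAJ18 barcodes against 4.203 and 4.44 CPM, Tcrg-C4 139 and 49.0 against 10.1 and 8.13 CPM, and Tcrg-C2 38.0 and 36.8 against 10.7 and 21.02 CPM. Both daily levels were above both levels of the others for each constant gene. A UMI of at least 1 of the 3 was found in 46 of 88 barcodes. The defining gene of gamma-delta T cells, the delta constant gene Trdc, had 2 UMIs in 1 barcode, and Trdv4 had none. The constant genes are close copies, so their split is uncertain.

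Within the 88 barcodes, Zbtb16 was seen in 40, Klrb1c in 33, both in 13 and neither in 28. Tbx21 was seen in 35, Gata3 in 30 and Il4 in 23, and Tbx21 and Il4 together in 7. Ly49 transcripts went with Klrb1c on both days: Klra9 or Klra1 was found in 23 of 33 barcodes with Klrb1c (69.7%, interval 51.3 to 84.4) and in 10 of 55 without it (18.2%, interval 9.08 to 30.9). The counts were 12 of 18 against 6 of 42 at day 13 and 11 of 15 against 4 of 13 at day 19. Gzmb went with Klrb1c at day 13 (14 of 18 against 12 of 42) and not at day 19 (13 of 15 against 11 of 13). Depth was even between these 2 groups, with medians of 6018 and 6094 UMIs. Among barcodes with Il4 UMIs, Klrb1c was found in 5 of 23 and Klra9 or Klra1 in 4 of 23, against 28 of 65 and 29 of 65 without Il4, at medians of 7418 and 5783 UMIs. Barcodes of 1 library are not replicates, and these shares carry no test.

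**Figure D5:**
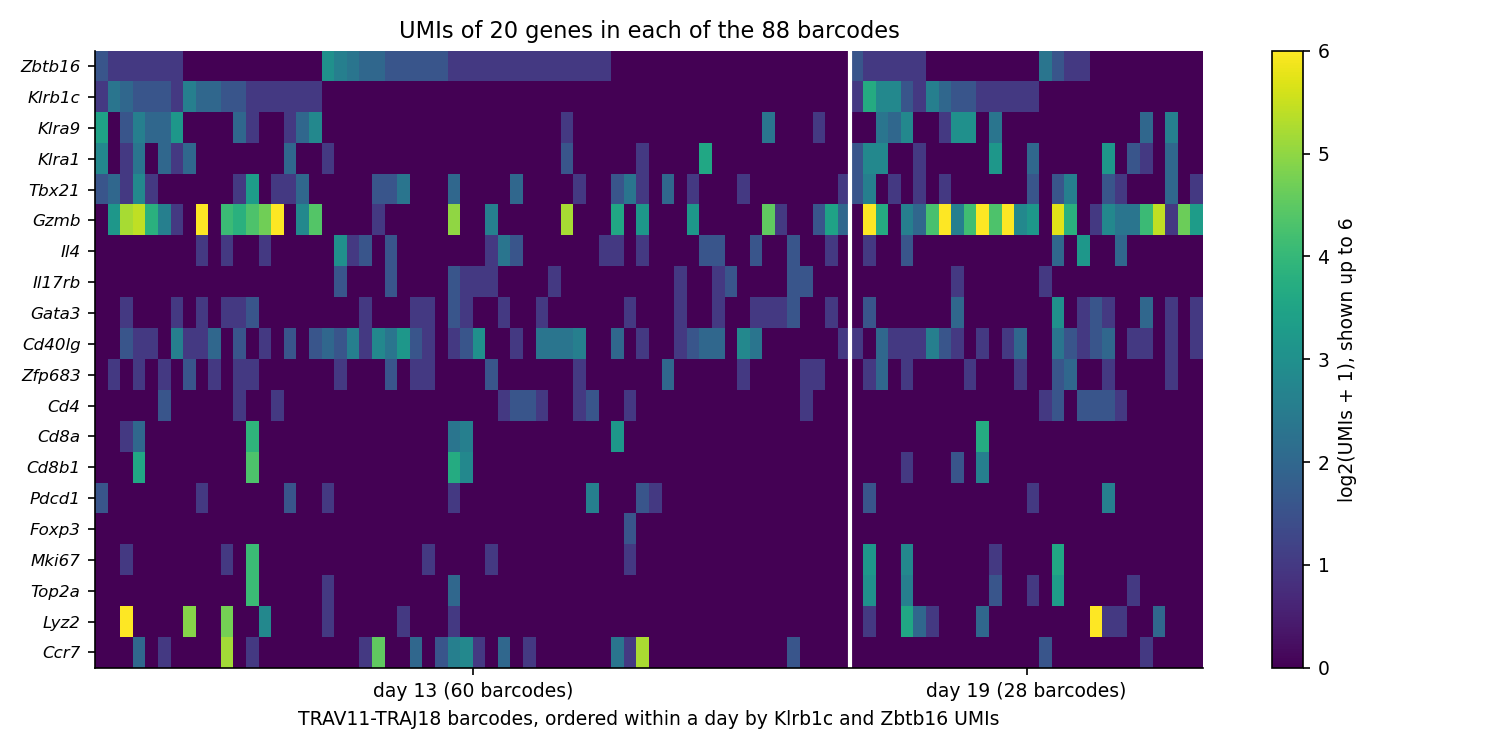
UMIs of 20 genes, as log2(UMIs + 1) with colours ending at 6, in each of the 88 TRAV11-TRAJ18 barcodes, split by day and ordered by Klrb1c and Zbtb16. Klra9 and Klra1 gather under the barcodes with Klrb1c on both days. Gzmb does so at day 13, where 26 of 60 barcodes have it, and is present in 24 of 28 at day 19 with or without Klrb1c.

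Zbtb16 was found at like shares in barcodes with one of the 5 usual TRBV segments (35 of 75) and with another segment (5 of 12). It was found in 3 of the 7 barcodes whose CDR3 differed from the common form, and Klrb1c in 0 of them. By segment, Zbtb16 was seen in 7 of 28 barcodes with TRBV13-2 (interval 10.7 to 44.9), 11 of 15 with TRBV13-1 (interval 44.9 to 92.2), 9 of 20 with TRBV29 and 5 of 9 with TRBV1.

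Surface protein was read by 138 antibody tags, and 0 of 138 (0%) passed edgeR's test, with 8 at an unadjusted p under 0.05. The lowest adjusted p was 0.32, for CD326. NK1.1 protein stood at 3784 and 4159 CPM of the tag sums against 3656 and 3641. CD4 stood at 851 and 1002 against 824 and 988, CD8a at 1936 and 2155 against 1996 and 2052, and the TCR beta tag at 1463 and 1730 against 1674 and 1835. Among the other T cells, the CD8a tag was at 2053 and 2238 in those with CD8 RNA only and at 1944 and 1855 in those with CD4 RNA only. The CD4 tag was at 707 and 688 in the former and at 1007 and 1381 in the latter, so the tags separated these cells to unlike degrees. Tags of checkpoint proteins, chosen after their values were seen, are given as values, since how well each tag separated cells with its protein was not tested. The log2 difference was -0.31 ± 0.07 for CD366 (TIM-3), at an unadjusted p of 0.017 and an adjusted p of 0.58 in edgeR. It was -0.01 ± 0.03 for CD279 (PD-1), 0.02 ± 0.02 for CD152 (CTLA-4) and 0.01 ± 0.02 for CD223 (LAG-3). TIGIT stood at 29383 and 26031 against 28690 and 26839. Without set 2 of day 19, 2 tags were called higher and 4 lower, and without set 3 of day 19, 1 was called lower.

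Day 19 was set beside day 13 within the class as a ratio of UMI sums with exact Poisson intervals and no test, since each day is 1 library. Of 4510 genes with at least 20 UMIs, 293 had an interval above 0 and 392 below. Gzmb stood at 1377 and 2525 CPM on the earlier and later day. Its log2 ratio was 0.87, with an interval of 0.71 to 1.04, beside 0.17 in other T cells. Without set 4 of day 19 the ratio was 0.22. After thinning, a Gzmb UMI was found in 38.3% of barcodes at day 13 (interval 26.1 to 51.8) and in 71.4% at day 19 (51.3 to 86.8), and unthinned in 43.3% and 85.7%. Klrb1c had a ratio of 1.19 (0.53 to 1.87), beside 1.00 in others. Zbtb16 had a ratio of -0.95 (-1.89 to -0.10), beside -1.53 in others. It ran from -0.50 without set 2 of day 13 to -1.57 without set 3 of day 13. Egr1, an early gene of receptor signalling, had -1.51 (-1.98 to -1.06) beside -0.91. Ccl5 had -0.93 (-1.11 to -0.76) beside -1.02, and -0.0084 without set 3 of day 13. Ifng had -0.82 (-1.47 to -0.22) beside -0.08, and ran from -0.56 without set 2 of day 19 to -1.44 without set 4 of day 19. The ratio of Ccl5 was -1.76 without set 4 of day 19. Il4 stood at 76.0 and 69.4 CPM.

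Most of the highest ratios between days rested on few barcodes. Spp1, a macrophage gene, had 85 UMIs in 3 barcodes at day 19 and none at day 13, and its ratio was 0.42 without set 1 of day 19. Fcrls and Tmem119, genes of microglia, had 21 UMIs in 3 barcodes and 26 in 5 at day 19. Rrm2 and Cdca3, genes of dividing cells, had 22 UMIs in 3 barcodes and 18 in 4. At the other end stood Ccr7 (-4.55, interval -6.84 to -2.97), Cd83 (-4.34, 74 UMIs in 9 barcodes at day 13 and 2 in 2 at day 19) and Cxcl9 (54 UMIs in 3 barcodes and 2 in 1), which mature dendritic and other myeloid cells express strongly. Others among the lowest ratios were spread more widely at day 13: Marcksl1 (-3.93) had 139 UMIs in 11 barcodes, Mmd (-3.59) 22 in 17 and Aar2 (-3.45) 20 in 18, against 5, 1 and 1 UMIs at day 19. The summed dendritic list moved the same way, from 6981 to 1605 CPM, and the myeloid list the other way, from 2357 to 6238 CPM. Their part in these ratios was not tested.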

How the data were processed

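Gene, antibody tag and TCR libraries of 2 days (day 13 and day 19) were used. The deposited gene and tag matrices hold UMI counts per barcode, and the deposited contig tables hold UMI counts and assembled segments per chain. Per the submitters' processing notes, Cell Ranger 4.0.0, STAR 2.7.5c, bcl2fastq 2.20, R 4.1.2, Seurat and mm10 were used. No doublet caller was run. Some listed genes are not reported here by name. The members and gene lists were chosen with earlier results of these data known.

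Raw counts were summed over TRAV11-TRAJ18 and over other contig barcodes of each day, giving 4 sums. They were compared with edgeR 4.0.16 in R 4.3.3 (quasi-likelihood, TMM, filterByExpr, day as block, Benjamini-Hochberg, threshold 0.05), tested on simulated data. TCR and immunoglobulin segments were left out of the fit. A merged name of TRBV12-2 and TRBV13-2 was counted as TRBV13-2. Named were the NKT markers, list genes that passed, examples that did not, and the 12 highest and 12 lowest genes, leaving out receptor segments, ribosomal, mitochondrial, unnamed and sex-linked marker genes. Intervals are exact (95%) and cover counting error only. Alternatives were DESeq2 1.42.0, contig sets as samples, other scaling, filters and comparison cells, and leaving out each contig set. Python 3.11.15, numpy 2.4.6, scipy 1.17.1, pandas 2.3.3 and matplotlib 3.10.9 were used.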

Additional observations from a re-analysis of the deposited data

Results flagged for a closer look

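Itga1, the integrin chain CD49a and a residency gene, lay above the other T cells in all 4 contig sets of day 13 and below them in all 4 sets of day 19. At day 19 the class had 1 UMI in each of 2 sets and none in the other 2, so that its place there rests on a count of 2. It measured 35.8 CPM against 13.7 CPM at day 13 and 8.17 CPM against 26.2 CPM at day 19, from 18 UMIs in 14 barcodes. Over both days its log2 difference was 0.44 ± 0.45 (edgeR adjusted p = 0.97). The difference between days was not tested.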

How the results depend on the processing

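Of 301 genes called (149 higher, 152 lower), DESeq2 called 78 (52 higher, 26 lower), and 77 of the 301 were shared. With each contig set as 1 sample 242 were called, 61 higher and 181 lower, and 201 of the 301 were shared. Against others with CD8 RNA only 588 were called (320 higher, 268 lower). Leaving out 1 contig set gave 175 to 281 genes (79 to 142 higher, 86 to 154 lower) and 0 to 6 tags (0 to 2 higher, 0 to 4 lower). Of 71 named genes with a call, 38 kept it without any single set, and 21 kept it in every alternative run. Signs turned against others with CD4 RNA only for Cd3e (0.044), Ccl5 (0.28), Nkg7 (1.31), Gzma (1.19), Gzmc (0.77) and Eomes (0.28). They turned against others with CD8 RNA only for Il2ra (0.035), Apoe (0.43), H2-Aa (0.49), H2-Ab1 (0.54) and Cd74 (0.55), and without barcodes holding myeloid UMIs for H2-Aa (1.13), H2-Ab1 (1.69) and Cd74 (0.64). Fcer1g was -0.26 with sets as samples and ran from -0.40 to 0.59 over left-out sets. Cd209d ran from -8.03 to 4.07 over left-out sets and was -7.54 without the deepest 10% of barcodes. Unthinned shares were 45.5% for Zbtb16, 37.5% for Klrb1c, 26.1% for Il4, 64.8% for Cd40lg, 12.5% for Pdcd1 and 13.6% for Ctla4. Over left-out sets the log2 ratio of day 19 to day 13 ran from 0.22 to 1.101 for Gzmb, from -1.76 to -0.0084 for Ccl5 and from 0.42 to 6.34 for Spp1. The causes were not tested. TRAV11-TRAJ18 and other barcodes were blocked by day, or by contig set within a day. Between days, no paired analysis was possible because each day is 1 sample. With 88 barcodes, genes of a few UMIs limit what could be seen.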

Other observations

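Across the main comparison and all 18 alternatives that were run, 38 genes were called in the same direction, 23 higher and 15 lower. Zbtb16 and Il4 were not tested when contig sets served as samples, so they could not be among them. The genes named here were chosen after their values were seen. Ramp1, a partner of the receptor for the neuropeptide CGRP, measured 127 and 167 CPM (day 13, day 19) against 20.8 and 28.7 CPM (log2 difference 2.54 ± 0.25). Ly6c1, a surface protein gene of memory T cells and monocytes, measured 183 and 28.6 against 13.1 and 10.9 CPM (3.06 ± 0.33). Lyst, a regulator of lysosomal granules, measured 179 and 155 against 58.0 and 48.0 CPM (1.61 ± 0.22). Dusp1, a phosphatase that switches off MAP kinases, measured 2191 and 2472 against 1002 and 783 CPM (1.35 ± 0.10). Cd40lg, the CD40 ligand gene, differed by 1.77 ± 0.21 in the main comparison, and after thinning to equal depth it was found in 23.9% of TRAV11-TRAJ18 barcodes and 10.8% of others.

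Among those lower were Rgs16, a regulator of G protein signalling, at 6.71 and 4.09 CPM against 106 and 218 CPM (-4.69 ± 0.41), and Tnfrsf9, the activation receptor 4-1BB, at 47.0 and 44.9 against 175 and 373 CPM (-2.45 ± 0.23).

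Outside the TRAV11-TRAJ18 class, 79 barcodes held a Zbtb16 UMI. Of these, 18 had no alpha chain contig, out of 1579 other barcodes without one, and 14 of the 18 used one of the 5 TRBV segments. Of the 60 with both chains, 19 used one of them. Among all other barcodes with a TRB chain the share was 31.0%, which is near that of the 60.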
